A study of Mus musculus with 7 samples.

Results

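The Slc25 family comprises the carrier proteins that move metabolites, nucleotides and cofactors across the inner mitochondrial membrane. Its members were taken here as every gene whose symbol is Slc25a followed by a number, measured by transcript clusters (the array's gene-level probe sets) annotated with 1 symbol. The brightest cluster over all arrays was kept for each gene. This gave 46 carriers among 19938 named genes. RNA came from Paneth cells, the antimicrobial secretory cells of small-intestinal crypts, isolated by flow cytometry from mice aged 4 months. Of the 7 arrays, 1 per sample, 3 came from mice fed ad libitum (freely fed arrays 1 to 3) and 4 from mice held for 4 to 7 weeks on 60% of the ad libitum calories (restricted arrays 1 to 4), numbered as the labels number the replicates. The labels name no strain, genotype or sex, and do not say whether an array holds cells of more than 1 mouse. The samples are labelled as biological replicates, and the p-values measure the spread between them. The series asks how restricting calories alters Paneth cells.

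Most carriers share a fold built from a repeated pair of membrane helices and exchange 1 substrate for another. They supply fatty acids as acylcarnitines, phosphate and ADP to the matrix and export ATP, citrate and aspartate. In the intestinal epithelium such exchange serves fat oxidation and the synthesis of ornithine and citrulline. Some members lie in other membranes, such as Slc25a17 in peroxisomes and Slc25a46 in the outer mitochondrial membrane.

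Values are log2 expression, with differences given as calorie restriction minus free feeding, and genes were tested with limma over all 13409 genes whose mean reached the 40th percentile of all clusters (6.79). A gene was called at an adjusted p below 0.05. Of the 46 carriers, 38 reached that level and 8 did not. Levels of different probe sets are not compared with each other, because each probe set has its own brightness.

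The array medians formed a lower set of 4 arrays (7.24 to 7.29: restricted arrays 1 to 3 and freely fed array 1) and a higher set of 3 (7.42 to 7.44: restricted array 4 and freely fed arrays 2 and 3). No label names a cause for this split. Paneth markers were present throughout: all 14 measured were above the filter level, and their mean lay between 13.0 and 13.4 on every array. Between diets 0 of 14 were called, where 0.656% of all genes tested were called higher and 0.00746% lower. At such shares 0 of 14 says little about these markers. Of the 14 differences 13 were negative (median -0.05), from -0.25 for Copz2 to 0.09 for Pla2g2a. Lyz1, the Paneth lysozyme, was at 14.31 ± 0.04 (SD, n = 4) against 14.31 ± 0.02 (n = 3). This is close to the highest value in the data (14.67), where a difference may not be measurable. Clps and Defa24, with means of 14.25 and 14.02, are also near that value. Wnt3 was at 10.59 on restricted array 4 and from 11.20 to 11.86 on the other arrays. Habp2 was at 12.64 there and from 13.03 to 13.43 on the others. Markers of enterocytes, the absorptive cells that the sort should leave out, differed between the diets. Of 34 tested, 14 rose under calorie restriction and 0 fell (0.656% and 0.00746% of all genes tested). The 14 were Fabp2, Alpi, Apoa4, Apoc3, Apob, Treh, Krt20, Slc6a19, Cyp3a11, Cyp2b10, Enpep, Mme, Ada and Clca4a. The mean of all 35 measured lay between 11.5 and 11.7 on the restricted arrays and was 10.8, 10.2 and 10.8 on freely fed arrays 1 to 3. The median difference of those tested was 1.03, and 32 of 34 differences were positive. Only Tmprss15 was below the filter level among them, and none can be called absent since the arrays give no zero. The part of these markers in the results on carriers was not tested. In RNA from sorted cells in bulk, fewer cells of a type and less RNA per cell cannot be told apart.

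Under calorie restriction 1 of the 38 carriers tested rose and 0 fell, where 0.656% of all genes tested were called higher and 0.00746% lower. The carrier that rose was Slc25a45, 1.88-fold higher. Differences were positive for 29 of the 38 carriers and negative for 9, with a median of 0.15 and a range from -0.18 to 0.91. Over all genes tested the median was 0.01 and 54.2% were positive. After centring each array on its median, the carriers' median was 0.24 and that of all genes 0.10. Centring moves the difference of every gene by the same amount. It therefore cannot change the gap between the 2 medians and is no further evidence for it. For 9 carriers every calorie-restricted array lay above every ad libitum array (23.7% of those tested, where 7.14% of all genes tested did so), and for 0 every one lay below (3.03% of all genes). These 9 were Slc25a45, Slc25a20, Slc25a24, Slc25a5, Slc25a33, Slc25a22, Slc25a34, Slc25a15 and Slc25a3. They belong to 5 of the 7 role groups into which the family was sorted. The same number, 9, had an unadjusted p below 0.05 with a higher level (6.89% of all genes tested). The share of carriers was not tested against that of other genes.

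**Figure D1:**
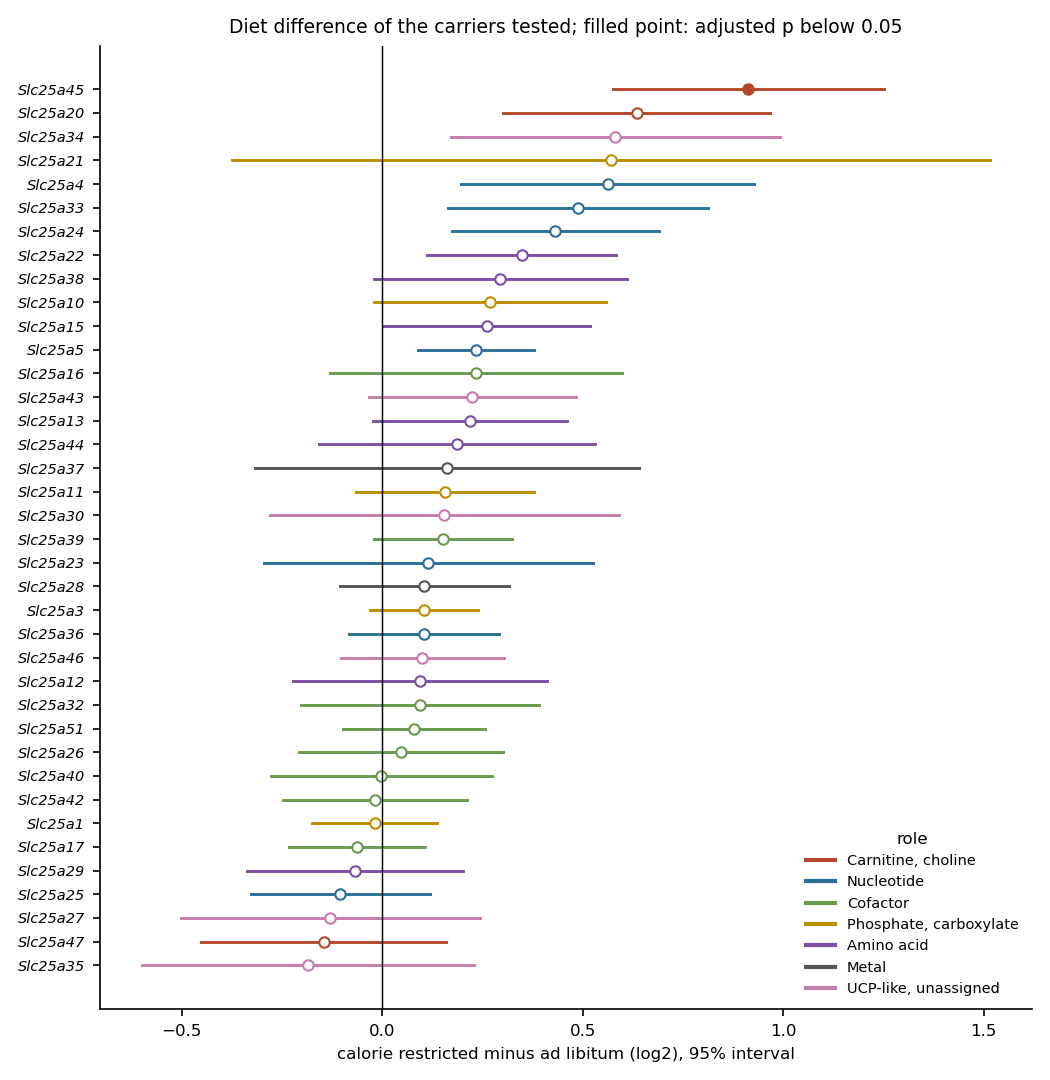
Difference between diets for the 38 carriers tested, restricted minus freely fed arrays in log2 units (x axis), with 95% intervals from limma, coloured by role. Slc25a45 is the filled point at 0.91, and 29 of the 38 points lie to the right of 0.

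The clearest differences were among carriers of carnitine, choline and methylated amines. Slc25a45, reported to import methylated amino acids, among them the trimethyllysine from which carnitine is made, stood at 10.29, 10.30, 10.15 and 9.97 on restricted arrays 1 to 4. The freely fed arrays, in the same order, gave 9.31, 8.96 and 9.52. The diets were separated by a gap, restricted array 4 being the lowest of its group and freely fed array 2 the lowest of all. The difference was 0.91 ± 0.15 (SE; 95% interval 0.57 to 1.25; limma, adjusted p = 0.0421). It was 0.73 within the higher-median arrays (1 against 2) and 0.93 within the others (3 against 1). The gene no longer passed after quantile normalization (adjusted p = 0.0605). Leaving out restricted array 1, 2, 3 or 4 gave an adjusted p of 0.152, 0.140, 0.136 or 0.0508, and leaving out freely fed array 1 or 2 gave 0.0663 or 0.122, while the difference stayed between 0.76 and 1.12 in every alternative.

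Slc25a20, the carnitine-acylcarnitine carrier that brings long-chain acyl groups to the matrix for oxidation, stood at 9.89, 10.04, 10.32 and 10.20 on the restricted arrays. On the freely fed ones it stood at 9.22, 9.49 and 9.72. The groups did not overlap, and the difference was 0.63 ± 0.15 (95% interval 0.30 to 0.97; limma, adjusted p = 0.139), which did not pass. Its lowest array was freely fed array 1, and that of Slc25a45 was freely fed array 2. Slc25a47, a carrier known mainly from liver, ran from 7.63 to 8.18 under restriction and from 8.04 to 8.14 under free feeding, so its groups overlapped (difference -0.15 ± 0.13). Slc25a48, a choline carrier, was below the filter level in both groups.

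**Figure D2:**
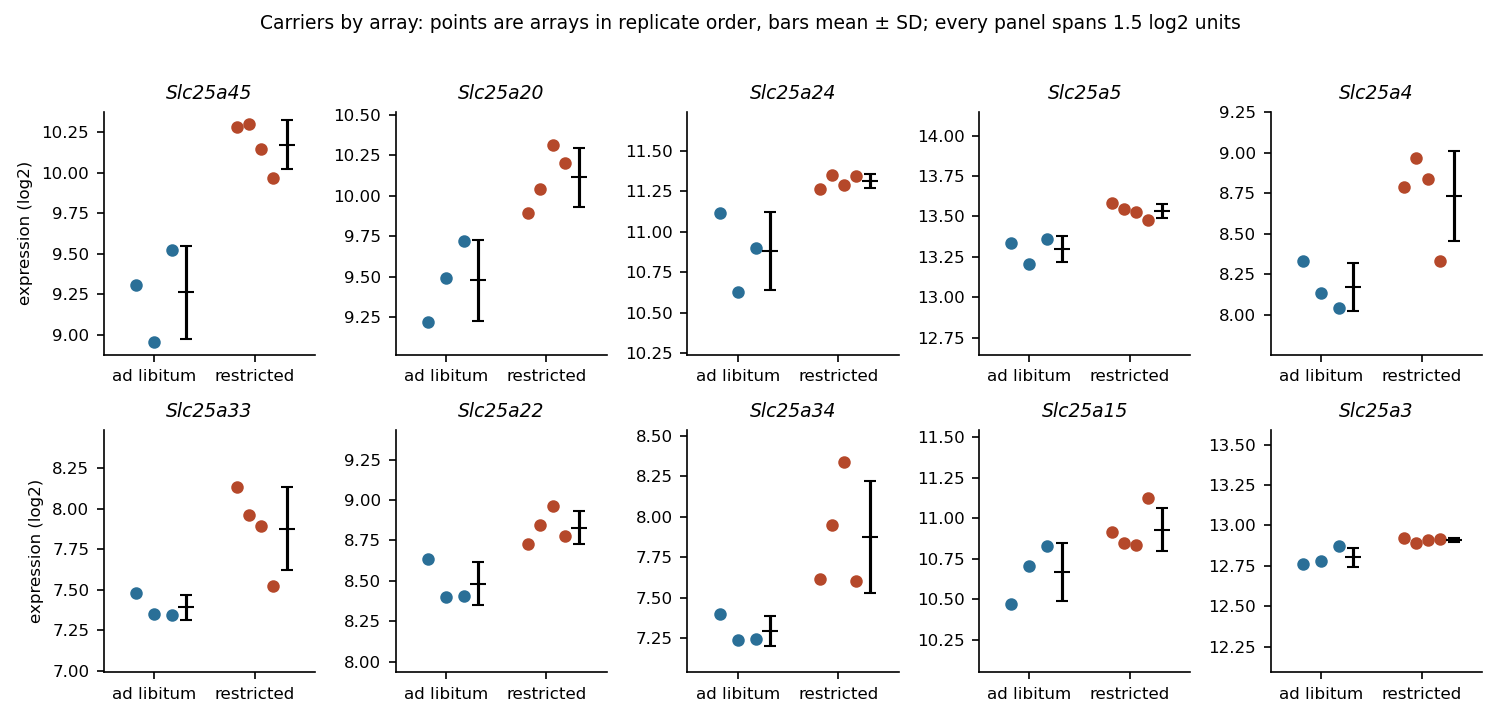
Log2 expression (y axis) of 10 carriers on each array, in ad libitum (blue, n = 3) and calorie-restricted mice (red, n = 4), with mean ± SD beside the points and 1.5 log2 units in every panel. The groups overlap in the panel of Slc25a4 and in none of the other 9, and the gap is widest for Slc25a45.

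Promoter sequences are shown for Slc25a45 and Slc25a20, the carriers with the smallest p, and for Slc25a33, a nucleotide carrier described further on. Each is the 250 bases before the RefSeq start of the gene in build GRCm38.p6, 5′ to 3′ on the gene's strand, at chr19:5877572-5877821 (plus), chr9:108661886-108662135 (plus) and chr4:149774268-149774517 (minus). Capitals mark matches to any of 8 motifs searched on both strands.
Slc25a45: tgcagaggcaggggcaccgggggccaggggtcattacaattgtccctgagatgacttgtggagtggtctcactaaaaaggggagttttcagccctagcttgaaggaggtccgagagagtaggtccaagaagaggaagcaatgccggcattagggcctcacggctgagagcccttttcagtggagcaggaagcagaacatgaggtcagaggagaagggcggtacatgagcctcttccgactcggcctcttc
Slc25a20: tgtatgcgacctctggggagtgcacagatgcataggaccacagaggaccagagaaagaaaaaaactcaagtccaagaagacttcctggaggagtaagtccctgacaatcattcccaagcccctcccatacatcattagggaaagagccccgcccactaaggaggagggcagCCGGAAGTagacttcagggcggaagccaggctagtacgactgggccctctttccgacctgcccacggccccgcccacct
Slc25a33: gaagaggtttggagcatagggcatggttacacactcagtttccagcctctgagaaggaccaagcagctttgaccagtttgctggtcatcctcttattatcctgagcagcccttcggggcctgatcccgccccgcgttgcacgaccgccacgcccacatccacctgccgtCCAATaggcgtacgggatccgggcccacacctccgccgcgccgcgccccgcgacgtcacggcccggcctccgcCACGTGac
The motifs were the CCAAT box (CCAAT), the ETS site bound by GABPA (CCGGAAGT), the E-box (CACGTG), the NRF1 site, the cAMP response element (TGACGTCA), the direct repeat of nuclear receptors (direct repeat 1), the estrogen-related receptor site (TCAAGGTCA) and the TATA box (TATAAA). The estrogen-related receptor site and the direct repeat share the letters AGGTCA. The window of Slc25a45 held none of these letter strings. That of Slc25a20 held an ETS match beginning 79 bases before the start, a string found in 3.89% of all 32851 windows of 300 bases (250 before and 50 after a start). Slc25a33 had a CCAAT match 81 bases before the start and an E-box 8 bases before it. Windows were found for 36 of the 46 carriers, 46 windows in all. A CCAAT string was in 47.8% of them (37.4% of all windows), an E-box in 17.4% (7.15%), an NRF1 site in 4.35% (4.6%) and a cAMP response element in 4.35% (1.79%). The TATA box was in 4.35% of the carrier windows (13.6% of all), the ETS string in 2.17% (3.89%), and the direct repeat and the estrogen-related receptor site in 0 (0.0396% and 0.423%).

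Nucleotide carriers exchange ADP, ATP or pyrimidine nucleotides across the inner membrane. Of 7 tested, 0 were called (0.656% of all genes tested were called higher). For 3 every restricted array lay above every freely fed array (7.14% of all genes). At these shares 0 calls in a role group of this size says little. Slc25a24, a calcium-regulated carrier that swaps ATP-Mg for phosphate, was nearly level under calorie restriction (11.26, 11.35, 11.29 and 11.34) and spread under free feeding (11.11, 10.63 and 10.90). The lowest array was again freely fed array 2, and the difference was 0.43 ± 0.11 (limma, adjusted p = 0.207). Slc25a5, the main ADP/ATP exchanger of dividing cells, was at 13.58, 13.55, 13.53 and 13.48 against 13.34, 13.21 and 13.36, a narrow difference of 0.23 ± 0.06 (adjusted p = 0.227). It has 3 clusters, with differences of 0.21, 0.23 and 0.23, and probes of this gene can also bind its processed copies, so its level is uncertain.

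Slc25a4, the ADP/ATP exchanger of muscle and heart, was at 8.79, 8.97 and 8.84 on restricted arrays 1 to 3 but at 8.33 on array 4, which fell just under freely fed array 1 (8.33, with 8.13 and 8.04 on the other two). Its difference was 0.56 ± 0.16 (adjusted p = 0.247), and 0.24 within the higher-median arrays. Slc25a33, a pyrimidine nucleotide carrier, followed a like order, at 8.14, 7.96, 7.89 and 7.52 against 7.48, 7.35 and 7.34. Its groups were separated by little at the boundary (0.49 ± 0.14, adjusted p = 0.264), and the difference was 0.18 within the higher-median arrays and 0.52 within the others. The related pyrimidine carrier Slc25a36 and the ATP-Mg carriers Slc25a23 and Slc25a25 had differences of 0.10, 0.12 and -0.10, each with an interval that includes 0. Slc25a31, the exchanger of the germ line, Slc25a41 and Slc25a54 were below the filter level.

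Among amino acid carriers 0 of 7 tested were called (0.656% of all genes were called higher). Slc25a22, which imports glutamate, was at 8.73, 8.85, 8.97 and 8.78 under calorie restriction and at 8.64, 8.40 and 8.41 under free feeding (0.35 ± 0.10; limma, adjusted p = 0.276). The groups did not overlap. Slc25a15, the ornithine carrier of the urea and citrulline pathways, had a gap of almost nothing, at 10.92, 10.84, 10.83 and 11.12 against 10.47, 10.70 and 10.83 (0.26 ± 0.11, adjusted p = 0.533). Slc25a38, a glycine carrier needed for heme synthesis, was at 10.44, 10.28 and 10.35 on restricted arrays 1 to 3, and at 9.89 on array 4 it overlapped with the ad libitum range of 9.86 to 10.05. Both carriers that exchange aspartate for glutamate in the malate-aspartate shuttle were measured. Slc25a13 had a difference of 0.22 ± 0.11 and Slc25a12 of 0.09 ± 0.14, both with overlapping groups. Slc25a44, which imports branched-chain amino acids, and Slc25a29, which carries basic amino acids, had differences of 0.19 and -0.07. The second glutamate carrier Slc25a18 and the second ornithine carrier Slc25a2 were below the filter level.

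The phosphate and carboxylate carriers also held 0 calls among 5 tested (0.656% of all genes were called higher). Slc25a3, which imports the phosphate used for ATP synthesis, varied least of all carriers tested, over a range of 0.16 across the 7 arrays. It was between 12.89 and 12.92 under restriction and at 12.76, 12.78 and 12.87 under free feeding, so the groups did not overlap although the difference was only 0.10 ± 0.06 (limma, adjusted p = 0.683). The dicarboxylate carrier Slc25a10 was at 10.81, 10.68, 10.59 and 11.03 against 10.35, 10.50 and 10.68 (0.27 ± 0.13). The oxoglutarate carrier Slc25a11 had a difference of 0.16 ± 0.10, and the citrate carrier Slc25a1, which feeds lipid synthesis, one of -0.02 ± 0.07 (95% interval -0.17 to 0.14). Slc25a21, the oxoadipate carrier of lysine breakdown, varied most, over 1.69 log2 units. The restricted arrays gave 6.52, 7.84, 7.69 and 6.44 and the freely fed arrays 7.21, 6.30 and 6.15, so that it was high on arrays of both diets and its interval ran from -0.37 to 1.51. Its freely fed mean of 6.55 lies under the filter level, which only restricted arrays 2 and 3 and freely fed array 1 exceeded.

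Cofactor carriers had the lowest median difference of the 7 role groups, 0.06. Of 8 tested, 0 were called (0.656% of all genes were called higher). In 0 the groups did not overlap (7.14% of all genes had every restricted array above). The largest differences were 0.23 ± 0.16 for Slc25a16, linked to coenzyme A, and 0.15 ± 0.07 for the glutathione carrier Slc25a39, which was at 11.49, 11.45, 11.39 and 11.52 against 11.40, 11.32 and 11.21. The NAD carrier Slc25a51 had a difference of 0.08 ± 0.08, the folate and FAD carrier Slc25a32 of 0.09 ± 0.13, the S-adenosylmethionine carrier Slc25a26 of 0.05 ± 0.11 and the coenzyme A carrier Slc25a42 of -0.02 ± 0.10. Slc25a17 and the second glutathione carrier Slc25a40 were at -0.06 and -0.002. The iron carriers Slc25a28 and Slc25a37 (mitoferrins) had differences of 0.11 ± 0.09 and 0.16 ± 0.21. Slc25a28 was at 10.11, 10.37, 10.28 and 10.34 against 10.19, 10.24 and 10.08, so its groups overlapped.

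Of 6 uncoupling-protein-like and unassigned carriers tested, 0 were called (0.656% of all genes were called higher). Slc25a34, whose substrate is not settled, was at 7.62, 7.95, 8.34 and 7.60 against 7.40, 7.24 and 7.24. All restricted arrays were above the others, with a wide spread among them, and the difference was 0.58 ± 0.18 (limma, adjusted p = 0.304). Slc25a43 (0.22 ± 0.11), Slc25a30 (0.16 ± 0.19), Slc25a46 (0.10 ± 0.09), Slc25a27 (-0.13 ± 0.16) and Slc25a35 (-0.18 ± 0.18) had overlapping groups. Slc25a14 and Slc25a53 were below the filter level. Of the family members that carry other symbols, Mtch1 and Mtch2, outer membrane insertases, had differences of 0.13 ± 0.08 and 0.33 ± 0.15, and the uncoupling proteins Ucp1 and Ucp3 were below the filter level.

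**Figure D3:**
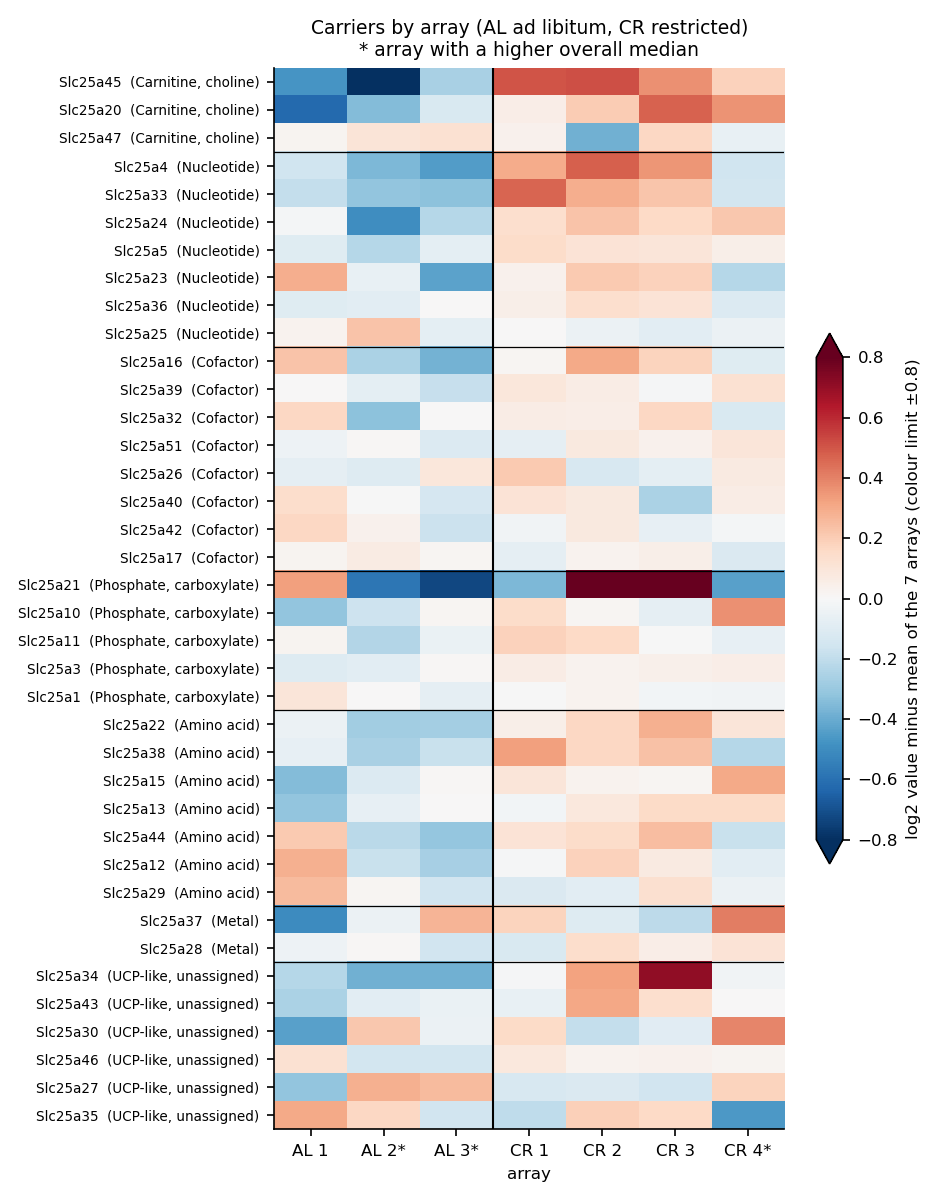
Log2 value of the 38 carriers tested minus each carrier's mean over the 7 arrays (colour, limited at ±0.8), by array and grouped by role, with asterisks on the 3 higher-median arrays. Slc25a45 and Slc25a20 separate by diet, while Slc25a21, with the widest range (1.69), is high on restricted arrays 2 and 3 and freely fed array 1.

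Some carriers separated the arrays by their median. With both directions counted, their share was near that of all genes. The directions were less even, with 10 carriers lower and 1 higher on the higher-median arrays, against 2241 and 1437 of all genes. This difference in direction was not tested. For 10 of the 38 carriers all 3 higher-median arrays lay below all 4 others (16.7% of all genes tested did so), and for 1, Slc25a27, they lay above (10.7% of all genes). The 10 were Slc25a4, Slc25a11, Slc25a12, Slc25a16, Slc25a21, Slc25a23, Slc25a32, Slc25a38, Slc25a44 and Slc25a46. Together these 11 make 28.9% of the carriers, near the 27.4% of all genes. The shift between array sets had the same sign in both diets for 29 of 38 carriers (76.3%, against 73.1% of all genes). Slc25a37, for example, was 0.46 higher on restricted array 4 than on restricted arrays 1 to 3 and 0.62 higher on freely fed arrays 2 and 3 than on freely fed array 1. Slc25a44 was lower by the same comparisons, with values of -0.34 and -0.47. The mean of 8 enteroendocrine markers also followed the split, at 10.4 to 10.5 on the higher-median arrays and 10.8 to 11.5 on the others. That of 6 stem and cycling markers was 11.2 to 11.3 and 10.5 to 11.1. Single markers followed it less evenly. Of the 8, 6 had all higher-median arrays below all others, and of the 6, 2 had them above. Lgr5, a stem cell marker, was lowest of its group on restricted array 4 (10.88). Goblet and tuft markers held 0 genes split in either direction. Of these markers 0 were called between diets, and their part in the carriers' values was not tested.

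**Figure D4:**
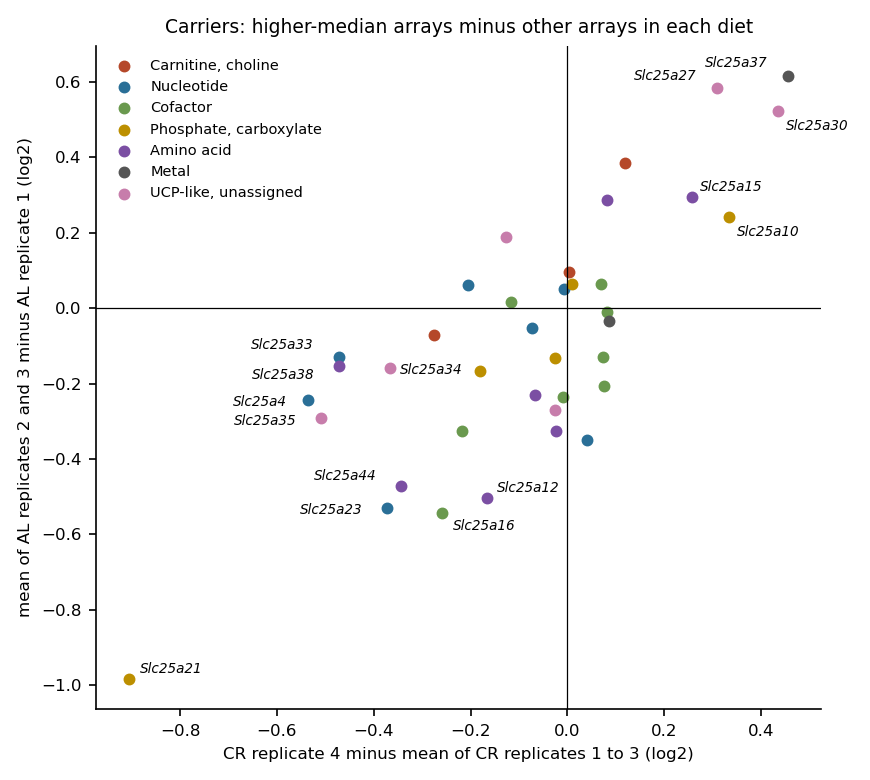
For each of the 38 carriers tested, the log2 level of restricted array 4 minus the mean of restricted arrays 1 to 3 (x axis) and the mean of freely fed arrays 2 and 3 minus freely fed array 1 (y axis), coloured by role. In 29 carriers both values have the same sign, with Slc25a21 at the lower left and Slc25a37 at the upper right.

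With the higher- and lower-median arrays as a block, a fit chosen after seeing the data, 4 carriers were called, all higher, where 2.6% of all genes tested were called higher. These were Slc25a45 (0.84 ± 0.14, adjusted p = 0.0195), Slc25a20 (0.74 ± 0.13, adjusted p = 0.0202), Slc25a15 (0.38 ± 0.07, adjusted p = 0.0213) and Slc25a10 (0.39 ± 0.08, adjusted p = 0.0427). The carriers' median difference was 0.11 in that fit. With array weights, which give arrays that fit the group means poorly less influence, 11 carriers were called higher, where 7.18% of all genes tested were. The differences of Slc25a15 were 0.36 and 0.39 within the higher- and lower-median arrays, and those of Slc25a10 were 0.44 and 0.35.

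Genes that work beside the carriers were described from 8 related lists. Of 87 such genes tested, 1 rose and 0 fell (0.656% and 0.00746% of all genes). It was Bbox1, the enzyme of the last step of carnitine synthesis, at 7.27, 7.36, 7.26 and 7.27 against 6.56, 5.95 and 6.21. The difference was 1.05 ± 0.13 (limma, adjusted p = 0.0184), but all 3 freely fed arrays lie under the filter level of 6.79. Bbox1 passed the filter only through the restricted arrays, so its restricted mean had to be the higher one. Neither the size nor the count of 1 is therefore support for a change in the related lists. Leaving out restricted array 1, 2 or 3 ended the call (adjusted p = 0.0767, 0.0808 and 0.0738). In the carnitine list 6 of 10 genes had every restricted array above every ad libitum array (7.14% of all genes), and the median difference was 0.30. Both the count and the median include Bbox1, to which the limit just given applies. Cpt2, which returns acyl groups from carnitine to coenzyme A, lay between 10.91 and 11.13 under restriction and at 10.38, 10.45 and 10.77 under free feeding (0.47 ± 0.11, adjusted p = 0.145), and passed without freely fed array 3 (adjusted p = 0.0493). Crot (0.33 ± 0.08), the organic cation carrier Slc22a4 (0.57 ± 0.14), Aldh9a1 (0.30 ± 0.08) and the outer membrane acyltransferase Cpt1a (0.31 ± 0.09) did not pass. The carnitine importer Slc22a5 had a difference of 0.11 ± 0.09 with overlapping groups.

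The other lists held 0 calls (0.656% of all genes tested were called higher). In the malate-aspartate and glycerol phosphate shuttles all 7 differences were positive (median 0.17). Got1, the cytosolic aspartate aminotransferase, was at 11.70, 11.29, 11.36 and 11.60 against 10.94, 10.88 and 10.83 (0.60 ± 0.11; limma, adjusted p = 0.0635, and 0.0487 after median centring), beside 0.16 ± 0.11 for its matrix counterpart Got2. The cytosolic glycerol phosphate dehydrogenase Gpd1 (0.55 ± 0.16) and the matrix malate dehydrogenase Mdh2 (0.17 ± 0.08) had overlapping groups. Among 11 ornithine, arginine and urea cycle enzymes (median 0.16), 3 had every restricted array above every freely fed array (7.14% of all genes). These were the arginase Arg2 (0.83 ± 0.19), the proline pathway enzyme Aldh4a1 (0.61 ± 0.15) and Prodh (0.20 ± 0.09). Otc, which uses the ornithine that Slc25a15 imports, had a difference of 0.21 ± 0.30. The 8 citrate export and acetyl-CoA genes had a median of 0.06, with the smallest p for Idh1 (0.34 ± 0.12), Cs (0.17 ± 0.06) and Aco1 (0.17 ± 0.07). The difference farthest from 0 in that list was negative, at -0.52 ± 0.49 for the malic enzyme Me1, which was at 11.12 on freely fed array 1 and between 8.73 and 9.66 on the other arrays. Acly, which cleaves exported citrate, and Acaca, which carboxylates acetyl-CoA, had differences of -0.12 ± 0.13 and -0.06 ± 0.10.

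Other inner membrane transporters had a median of 0.03 over 15 tested. The calcium uniporter Mcu (0.22 ± 0.07), the serine carrier Sfxn1 (0.19 ± 0.06) and the pyruvate carrier subunit Mpc1 (0.25 ± 0.11) had the smallest p. Of 17 porins and parts of the machinery that imports carriers, 16 had a positive difference (median 0.13), with the smallest p for the receptor Tomm20 (0.34 ± 0.09), Timm10 (0.28 ± 0.12) and Chchd4 (0.19 ± 0.09). Among 17 genes of mitochondrial content and biogenesis (median 0.07), the fatty acid sensor Ppara (0.51 ± 0.16), Esrra (0.29 ± 0.10) and Ppargc1a (0.37 ± 0.20) had the smallest p, and Tfam, which packages mitochondrial DNA, had a difference of 0.20 ± 0.11. For Pprc1, a relative of Ppargc1a, every restricted array lay below every freely fed array (-0.10 ± 0.08), as for 3.03% of all genes. Every restricted array lay above for 3 of the 15 transporters, 4 of the 17 porin and import genes and 2 of the 17 biogenesis genes (7.14% of all genes). Among the enterocyte markers described at the start, Cyp2b10 was 3.45-fold higher (adjusted p = 0.00534).

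**Figure D5:**
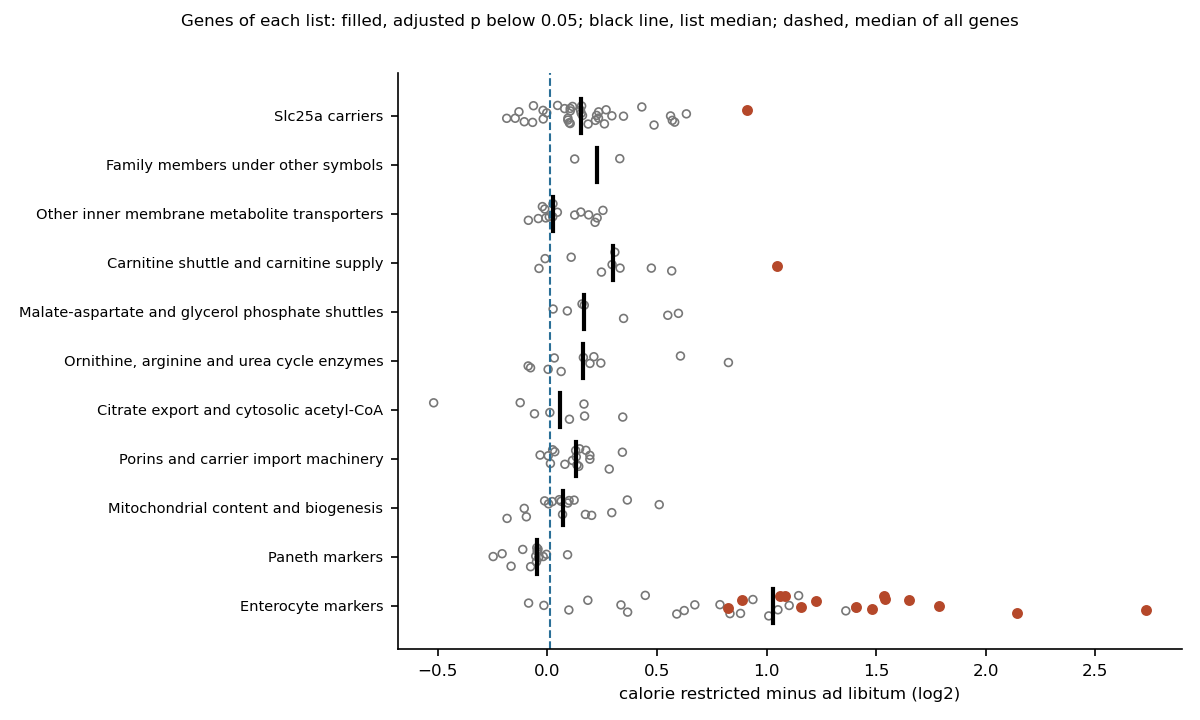
Difference between diets (x axis, log2) of each gene tested in the carrier family, the 8 related lists, and the Paneth and enterocyte marker lists. Filled points passed at adjusted p below 0.05: 1 carrier, 1 gene of the related lists and 14 enterocyte markers; black lines are list medians (0.15 for carriers, 1.03 for enterocyte markers) and the dashed line is the median of all genes (0.01).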

How the data were processed

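RNA from sorted Paneth cells was measured on 7 Affymetrix arrays (calorie restricted, n = 4; ad libitum, n = 3). The authors deposited log2 values per transcript cluster, and the submitters' processing notes name Affymetrix Expression Console. Which algorithm and normalization it ran is not given in the sources used here, and the log2 scale was inferred from values of 2.97 to 14.7. They were used without further scaling, and the number of arrays limits the precision.

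Of 35556 clusters, 21789 had 1 gene symbol in the platform annotation, 1621 several and 12146 none, and RefSeq gene identifiers (GRCm38.p6) changed 0 symbols. The 46 carriers had 50 clusters, of which 43 carriers had 1. The test between diets was limma's (3.58.1, under R 4.3.3), with lmFit, eBayes with an intensity trend and no covariates, and p-values were adjusted by Benjamini-Hochberg across the 13409 genes. The fit was tested on simulated data. Alternatives were quantile normalization, median centring, no filter, a 60th percentile filter, the mean of all clusters, no trend, robust estimation, array weights, a block for the replicate number and the omission of each array in turn. Described with values per array are Slc25a45, Slc25a20, called carriers, those whose groups did not overlap, the 10 with the smallest p and the smallest p of each role group; other carriers, such as Slc25a21, were named after their values were seen. From related lists, called genes and up to 3 with the smallest p were named, and others after their values were seen. The members and lists were chosen with earlier results of these data known. Motifs were chosen with the results known. Promoter windows were RefSeq's (GRCm38.p6). Figures were drawn with matplotlib (version 3.10.9).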

Additional observations from a re-analysis of the deposited data

How the results depend on the processing

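The number of carriers called, 1 in the reported fit, was 0 after quantile normalization, 11 with array weights (all higher; 7.18% of all genes tested were called higher there), 4 with the array-median block and 0 to 1 when 1 array was left out. The number called in the related lists, also 1, was 0 with the 60th percentile filter, under which Bbox1 was not tested. That number was 2 after median centring, 19 with array weights, 6 with the array-median block and 0 to 2 when 1 array was left out. The carriers' median difference of 0.15 was 0.24 after median centring and between 0.11 and 0.18 in the other 16 alternatives. The count of positive carriers was 34 of 38 after median centring and 25 of 31 with the 60th percentile filter. None of the 14 carriers chosen by rule changed sign in any alternative that measured it. The replicate numbers are shared between the diets, and no label says that they mark pairs. Same-numbered arrays had deviations from their group means correlated at -0.13, -0.27 and -0.55. The arrays numbered 2, and those numbered 3, fall in opposite array-median sets. These values therefore cannot decide whether the numbers mark pairs. With the replicate block 0 carriers and 0 genes of the related lists were called (Slc25a45 0.98, adjusted p = 0.190), and limma called 0 of all genes (988 had an unadjusted p below 0.05). The cause of these changes was not tested. Over all genes, the 88 higher and 1 lower calls became 963 and 392 with array weights, 348 and 168 with the array-median block, 53 and 0 after quantile normalization, and between 12 and 97 higher and 0 and 9 lower when 1 array was left out. Values near the bottom or top of the array's range have no stated background or ceiling. This limits the carriers below the filter level, Slc25a5, Lyz1 and the other bright Paneth markers.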

Other observations

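Annotation by RefSeq placed 4 pairs of carriers next to each other in the genome, among protein-coding genes. Slc25a24 had a difference between diets of 0.43 ± 0.11, while its neighbour Slc25a54 was below the filter level on the arrays. Slc25a5 and its X-linked neighbour Slc25a43 had differences of 0.23 ± 0.06 and 0.22 ± 0.11. Slc25a23 (0.12 ± 0.18) adjoins Slc25a41, which was below the filter level, and Slc25a29 (-0.07 ± 0.12) adjoins Slc25a47 (-0.15 ± 0.13). None of these neighbours that were tested passed, and those below the filter level were not tested.

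Beside Slc25a5, 2 carriers had more than 1 cluster. The clusters of Slc25a36 had differences of 0.10 and 0.12, and those of Slc25a40 of -0.002 and -0.02. In both, the clusters gave the same sign. Within the calorie-restricted group, replicate 4 was the lowest array for 18 of the 38 carriers tested (47.4%, against 36.8% of all genes), and within the ad libitum group replicate 1 was the highest for 20 (52.6%, against 47.7%).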
